A study of Mus musculus with 10 samples.

Results

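The hairpins of miR-296, miR-151, miR-423 and miR-345 were taken as 4 precursors whose higher arm was not the same in every retinal library. In miR-296 the arms were not at similar levels on average, with means of 128 normalised reads for the 3p arm and 63.4 for the 5p arm. The 4 hairpins were chosen by name, as the 8 rows of both arms among 1061 mature miRNAs in the table. All 8 of 8 were found, none of them listed at 0 in any library. The choice rested on the ratio of the arms in these same libraries, so the level of that ratio is given below as a description, with no test. Small RNA was sequenced from both retinas of 5 wild-type C57BL/6J mice at postnatal day 34, which gave 5 left and 5 right libraries of the mice numbered 61, 64, 65, 66 and 68. From postnatal day 24 every mouse carried a goggle with a -20 D lens on 1 eye, kept on for 10 days to induce myopia, and its fellow eye was left without one. Which eye held the lens is not in the labels, so the contrast used here is right against left in the same animal and stands for no treatment. No library used here came from a mouse without a lens, and a whole retina holds many cell types, so that fewer cells of a type and less RNA per cell cannot be told apart.

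A miRNA precursor folds back on itself into a hairpin, and the enzymes Drosha and Dicer cut out a short duplex of its 5p arm, from the 5′ side of the loop, and its 3p arm, from the 3′ side. An Argonaute protein usually keeps 1 strand of the duplex as the guide and discards the other, and strands that start with U or A or have a loosely paired 5′ end are favoured. Some hairpins yield stable miRNAs from both arms, each with its own seed, the bases that pair with target mRNAs.

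The precursors of 3 hairpins are shown to locate the arms that were compared. They are RNA sequences from RefSeq on GRCm38.p6, 5′ to 3′, with the 5p arm and then the 3p arm in capitals. The first is on chromosome 2 from 174267047 to 174267125 (minus strand), the second on chromosome 11 from 77078064 to 77078172 (minus strand) and the third on chromosome 12 from 108836973 to 108837068 (plus strand).
miR-296: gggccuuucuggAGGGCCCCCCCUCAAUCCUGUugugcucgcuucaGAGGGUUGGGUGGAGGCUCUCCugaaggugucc
miR-423: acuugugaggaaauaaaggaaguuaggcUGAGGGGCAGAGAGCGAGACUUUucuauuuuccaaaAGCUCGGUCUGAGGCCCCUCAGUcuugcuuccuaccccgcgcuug
miR-345: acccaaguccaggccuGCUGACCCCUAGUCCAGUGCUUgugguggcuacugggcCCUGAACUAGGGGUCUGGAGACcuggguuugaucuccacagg

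The mature arms follow with the seed, bases 2 to 8, in capitals, since the arm that is kept sets which mRNAs can be bound. RefSeq matched 6 of the 8 arms, and mmu-miR-151-5p and mmu-miR-151-3p are named only.
mmu-miR-296-5p: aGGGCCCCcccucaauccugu
mmu-miR-296-3p: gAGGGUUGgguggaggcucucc
mmu-miR-423-5p: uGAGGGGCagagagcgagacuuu
mmu-miR-423-3p: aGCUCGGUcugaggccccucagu
mmu-miR-345-5p: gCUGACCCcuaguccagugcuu
mmu-miR-345-3p: cCUGAACUaggggucuggagac

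The 6 seeds all differed from each other, and no other miRNA of the table with a RefSeq sequence had any of them. Outside the table, miR-6921-5p shares the seed of miR-423-5p. The arms were rich in G and C, with a GC content of 66.7% and 68.2% for miR-296-5p and miR-296-3p, 56.5% and 65.2% for miR-423-5p and miR-423-3p and 59.1% for each arm of miR-345, where the tested miRNAs had a median of 47.8%. miR-423-5p starts with U and the 3p arm of that hairpin with A, whereas neither arm of miR-296 or miR-345 starts with U.

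The loci lie on 4 chromosomes (GRCm38). miR-151-5p (chromosome 15, 73254855 to 73254875, minus strand) and miR-151-3p (73254820 to 73254840) lie in an intron of Ptk2, which encodes focal adhesion kinase, and, on the other strand, in an intron of the antisense RNA 1700085D07Rik. miR-423-5p (chromosome 11, 77078122 to 77078144) and miR-423-3p (77078086 to 77078108) are intronic in Nsrp1, the gene of a splicing regulator of nuclear speckles. miR-345-5p (chromosome 12, 108836989 to 108837010) and miR-345-3p (108837027 to 108837048) lie in an intron of Slc25a47, the gene of a mitochondrial carrier. miR-296-5p (chromosome 2, 174267093 to 174267113) and miR-296-3p (174267058 to 174267079) lie outside other annotated genes, in the imprinted Gnas region, 378 bases from the hairpin of miR-298.

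The libraries carried the miRNAs of the retina. Photoreceptor miR-182-5p was the highest of all miRNAs, and the neuronal miR-124-3p was at a median of 81300 normalised reads. Among miRNAs of other cells, the right retina of mouse 65 stood apart with 22384 normalised reads of miR-184-3p, abundant in lens and cornea (988 to 2117 in the other 9 libraries), whereas the other listed miRNA of these tissues, miR-205-5p, was at 25.6 there and at a median of 27.9 over the libraries. The left retina of mouse 68 had 1596 of the muscle miRNA miR-133a-3p (241 to 359 in the others) and 26.6 of miR-1a-3p (median 2.46). The deposited values are normalised, by a method inferred from the values to be quantile normalisation, with library totals from 17312269 to 17312436, so sequencing depth is unknown and no counting interval can be given. The size of an arm ratio depends on that normalisation, and adapter ligation favours some sequences, so the ratios are not molar.

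The 4 hairpins held different places in the profile. miR-151 was the highest, with means of 13859 ± 1327 normalised reads for miR-151-3p and 12624 ± 1591 for miR-151-5p (SD over 10 libraries), ranks 33 and 35 among 1061 miRNAs. miR-423 followed, with 5307 ± 1549 for miR-423-5p and 5139 ± 1032 for miR-423-3p, ranks 61 and 62. Then came miR-345, with 176 ± 21.9 for miR-345-5p and 166 ± 27.9 for miR-345-3p, and miR-296, with 128 ± 61.6 for miR-296-3p and 63.4 ± 12.9 for miR-296-5p. In this order the arms of miR-151 overlapped in range over the libraries, as did those of miR-423 and those of miR-345. The range of miR-296-3p overlapped those of both arms of miR-345 and covered all values of miR-296-5p. Ranges did not overlap between miR-151 and miR-423, or between miR-423 and miR-345.

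**Figure D1:**
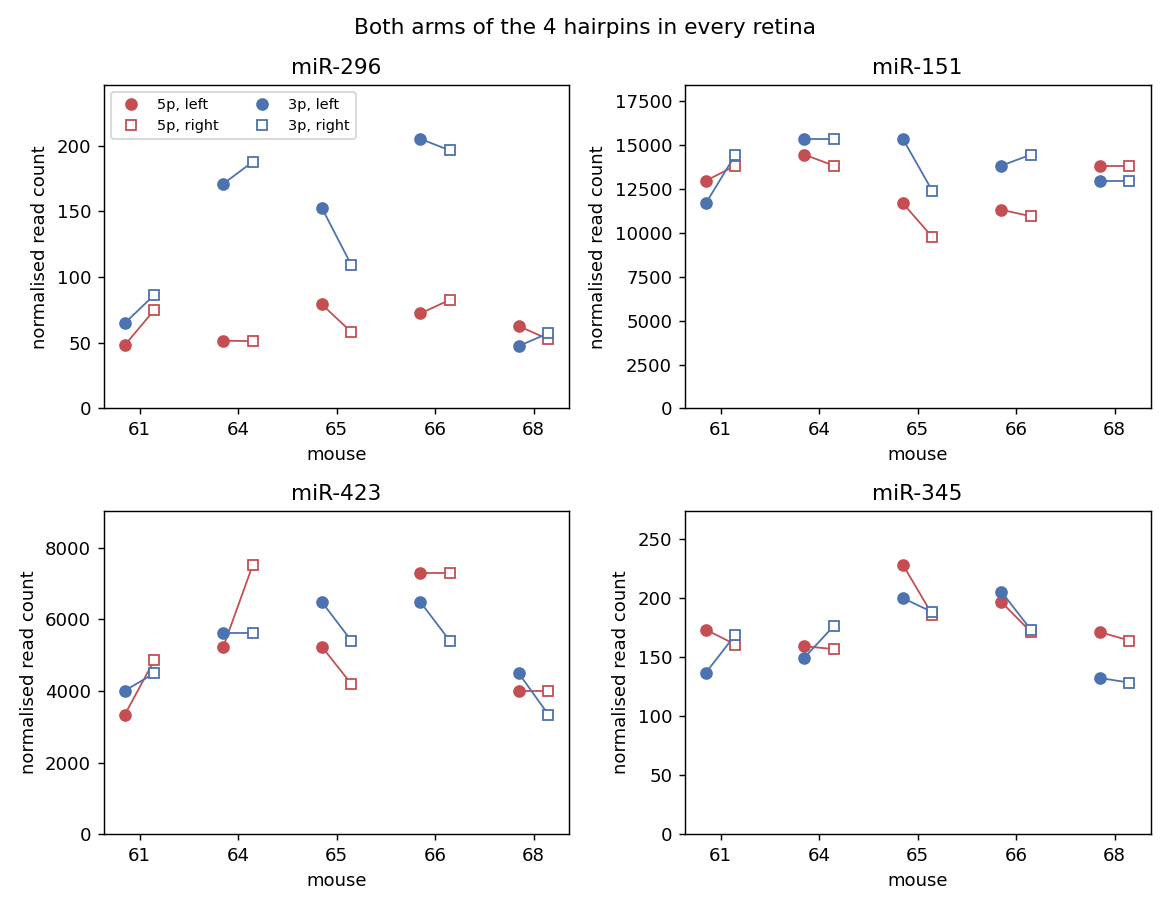
Normalised read counts (y axis, linear, from 0) of the 5p arm (red) and 3p arm (blue) of each hairpin in the left (filled circle) and right (open square) retina of each mouse (x axis), with the retinas of a mouse joined. The 3p arm of miR-296 lies between 109 and 205 in mice 64, 65 and 66 and between 47.5 and 86.5 in mice 61 and 68, while its 5p arm stays between 48.3 and 82.7.

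In miR-296 the 3p arm varied between mice and the 5p arm less so. miR-296-5p, which is known for a role in blood vessel growth, was at 48.3, 51.6, 79.3, 72.3 and 62.7 normalised reads in the left retinas of mice 61, 64, 65, 66 and 68 and at 75.1, 51.3, 58.1, 82.7 and 52.7 in the right. Its highest library was 1.71-fold above its lowest. miR-296-3p was at 65.03, 171, 153, 205 and 47.5 in the left retinas and at 86.5, 188, 109, 196 and 57.3 in the right, a 4.32-fold range. Both retinas of mice 61 and 68 were lower in miR-296-3p than every retina of mice 64, 65 and 66, whereas left and right libraries overlapped widely. On the log2 scale the mean of a mouse's retinas had an SD over mice of 0.82 for miR-296-3p and 0.22 for miR-296-5p. Rank moved accordingly, from 204 to 324 for miR-296-3p and from 273 to 323 for miR-296-5p.

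The log2 ratio of the arms, log2((5p + 1)/(3p + 1)), was therefore close within a mouse and different between mice for miR-296. In left and right retina it was -0.42 and -0.20 in mouse 61, -1.71 and -1.85 in mouse 64, -0.94 and -0.90 in mouse 65, -1.49 and -1.24 in mouse 66 and 0.39 and -0.12 in mouse 68. The 5p arm made up 21.5% to 56.9% of the sum of both arms. The 3p arm was higher in 9 of 10 libraries, and the left retina of mouse 68 was the exception. The means of the mice spanned -1.78 to 0.14 with an SD of 0.77, against an SD of 0.31 for right minus left within mice. This quotient of 2.48 took rank 3 among 126 hairpins whose arms both had a mean of at least 10 normalised reads, where the median was 0.62. Rank 1 was held by miR-322, which also lacked a fixed higher arm, at 5.43, so the trait is not particular to miR-296. A mean of both retinas varies less than the difference between them even where mice do not differ, so equal SDs do not mark the absence of a mouse effect.

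Other measures of the libraries moved between the same mice. miR-211-5p, a miRNA of pigment epithelium hosted by Trpm1, was at 14434, 15329.8, 20982.5 and 17043 in the retinas of mice 61 and 68 and between 6309 and 12948 in those of mice 64, 65 and 66, without overlap and opposite to miR-296-3p. It was chosen after its values were seen, and how many other miRNAs separate these mice was not counted, so the match is a description only. The other listed marker of pigment epithelium, miR-204-5p, was at 203500 in all libraries. Quantile normalisation, the inferred method, gives the same value to a miRNA that keeps its rank, so this does not show an unchanged level. The sum of both markers, mostly this value, was 209809 to 224482 in left and 213245 to 220543 in right libraries, with neither at 0. The first principal component of the table without the 8 arms, which held 22.8% of the variance, was -0.23, -0.12, -0.21 and -0.11 in mice 61 and 68, -0.07 and -0.03 in mouse 64 and between 0.06 and 0.36 in mice 65 and 66. The part of these in the ratio of miR-296 was not tested. The trend of each library with GC content ranged from -0.15 to 0.12 log2 units per 10 points of GC, and the arms of miR-296 differ by 1.52 points.

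Beside miR-296, its neighbour miR-298 kept a fixed arm. miR-298-5p was between 2948 and 4352 normalised reads and miR-298-3p between 0 and 6.60, a mean log2 ratio of 9.88 ± 0.93 (SD over 10 libraries). The values of miR-298-5p spanned 1.48-fold, and its highest library was the right retina of mouse 61, at 4352, in which miR-296-3p was at 86.5. The left retina of mouse 66, with the highest miR-296-3p, had 3830.

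**Figure D2:**
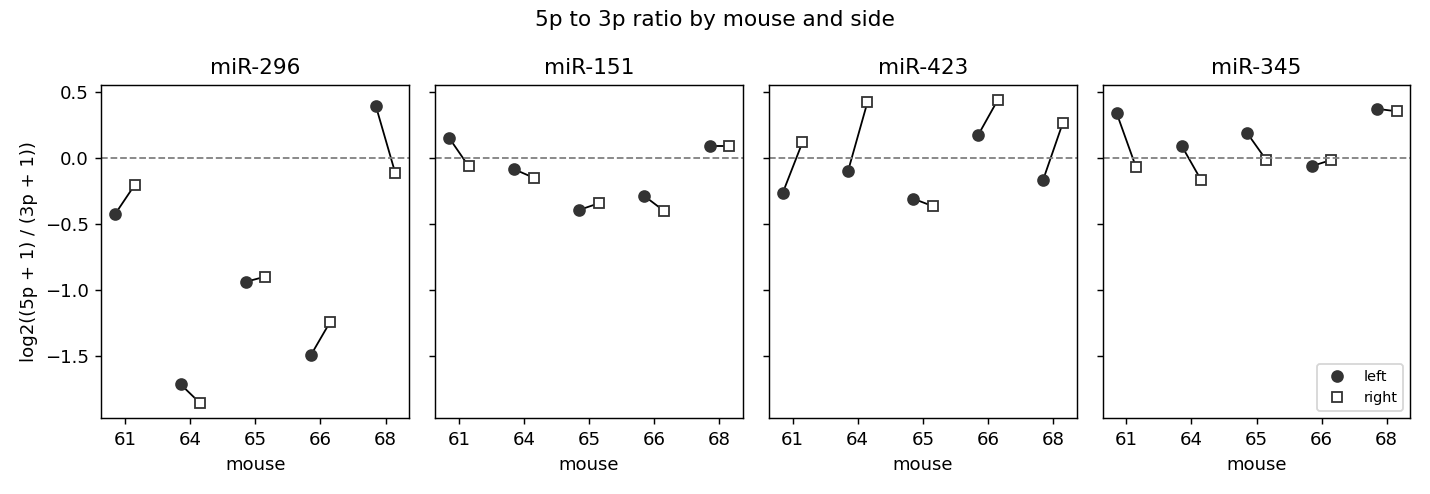
The log2 5p to 3p ratio (y axis) of each hairpin in left (filled circle) and right (open square) retina of each mouse (x axis), with equal arms at the dashed line. miR-296 runs from -1.85 to 0.39 and follows the mouse, whereas miR-151, miR-423 and miR-345 all lie between -0.41 and 0.44.

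miR-151 gave nearly equal arms at high level. miR-151-5p was at 12948, 14434, 11669.7, 11298 and 13805 normalised reads in the left retinas of mice 61, 64, 65, 66 and 68 and at 13805, 13805, 9745, 10929.6 and 13805 in the right. miR-151-3p was at 11669.7, 15329.8, 15329.8, 13805 and 12948 in left and at 14434, 15329.8, 12365, 14434 and 12948 in right retinas. Several values recur across libraries, and the arms held ranks 32 to 42. The 3p arm was higher in 7 of 10 libraries, including all those of mice 64, 65 and 66, and the 5p arm in both retinas of mouse 68 and the left retina of mouse 61. The log2 ratio ran from -0.40 to 0.15 with a mean of -0.14 ± 0.21 (SD over 10 libraries), and the 5p share from 43.1% to 52.6%. As in miR-296, the SD of mouse means (0.21) exceeded the SD of right minus left within mice (0.10), a quotient of 2.08 with rank 6 among 126. The highest mouse mean was in mouse 68 for miR-296 (0.14), miR-151 (0.09) and miR-345 (0.36), and in mouse 66 for miR-423 (0.30). The quotient did not set miR-151 apart from its relative miR-708, which had 2.11 with rank 5.

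miR-28a and miR-708 resemble miR-151 in the sequence of their 5p arms and showed different arm balances. miR-28a-5p was between 401 and 535 normalised reads and miR-28a-3p between 29.3 and 49.9, with the 5p arm higher in 10 of 10 libraries and a mean log2 ratio of 3.50 ± 0.30 (SD over 10 libraries). miR-708-3p, hosted like its 5p arm in a teneurin gene, had a mean of 785 and miR-708-5p of 582, and its 3p arm was higher in 10 of 10 libraries, at a mean log2 ratio of -0.42 ± 0.19.

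In miR-423 the higher arm differed between the retinas of 3 of 5 mice. miR-423-5p, also studied as a circulating marker of heart failure, was at 3345, 5242, 5242, 7309 and 4013 normalised reads in the left retinas of mice 61, 64, 65, 66 and 68 and at 4871, 7533, 4197, 7309 and 4013 in the right. miR-423-3p was at 4013, 5627, 6491, 6491 and 4496 in left and at 4496, 5627, 5404, 5404 and 3345 in right retinas. In mice 61, 64 and 68 the 3p arm was higher on the left and the 5p arm on the right. In mouse 65 the 3p arm was higher on both sides, and in mouse 66 the 5p arm. Over the libraries each arm was the higher one in 5 of 10, with a mean log2 ratio of 0.02 ± 0.30 (SD) and a 5p share from 43.7% to 57.5%. The sum of both arms varied 1.88-fold, from 7357 to 13800.3 normalised reads, more than the ratio, whose range was 1.74-fold.

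miR-345 likewise had each arm higher in 5 of 10 libraries, and the higher arm differed between the retinas of mice 61, 64 and 65. miR-345-5p was at 173, 159, 228, 196 and 171 normalised reads in the left retinas of mice 61, 64, 65, 66 and 68 and at 160.4, 157, 186, 171 and 164 in the right. miR-345-3p was at 137, 149, 199.7, 205 and 132 in left and at 169, 176, 188, 173 and 128 in right retinas. The right value of miR-345-5p was below the left in 5 of 5 mice, and the sides overlapped. The log2 ratio ran from -0.17 to 0.37, with a mean of 0.10 ± 0.20 (SD over 10 libraries) and a 5p share from 47.0% to 56.4%. Mouse 68 had the 5p arm higher by a log2 ratio of 0.37 in its left and 0.35 in its right retina, and mouse 66 had the arms nearly level at -0.06 and -0.02.

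The name of hairpins without a fixed higher arm held for all 4 only when any margin counted. Where the arms had to differ by at least 1.2-fold, miR-423 had 2 libraries with the 5p arm higher and 2 with the 3p arm, and miR-296 had 1 and 7. For miR-423 these were the right retinas of mice 64 and 66, and both retinas of mouse 65. Its higher arm thus did not change between the retinas of any mouse with that margin. With that margin miR-151 had 0 and 4 and miR-345 had 3 and 0, so that neither showed both orders.

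Against the other hairpins, near-equal arms were the exception. Of 329 hairpins with both arms in the table, 126 had both at a mean of at least 10 normalised reads. Their median distance from equal arms was 3.24 on the log2 scale, or 9.44-fold, and mean ratios ran from -10.93 for miR-22 to 15.02 for miR-182. The 5p arm was higher in all 10 libraries for 61 hairpins and the 3p arm for 46, and the higher arm was not the same in every library for 19 (15.1%), the 4 chosen and 15 others. Of these 19, each arm was the higher one at least once in 18, and miR-350 had its 5p arm higher in 9 libraries and equal arms in 1. By the distance of the mean ratio from 0, miR-423, miR-345 and miR-151 took ranks 2, 3 and 4 among 126 and miR-296 rank 22. Only miR-151 and miR-423 of the 19 had both arms at a mean of at least 1000 normalised reads, where 8 hairpins were measured. Just outside the group were miR-666, whose 5p arm was higher in all 10 libraries by a log2 ratio of at least 0.02, and miR-708, whose 3p arm was higher by at least 0.07.

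**Figure D3:**
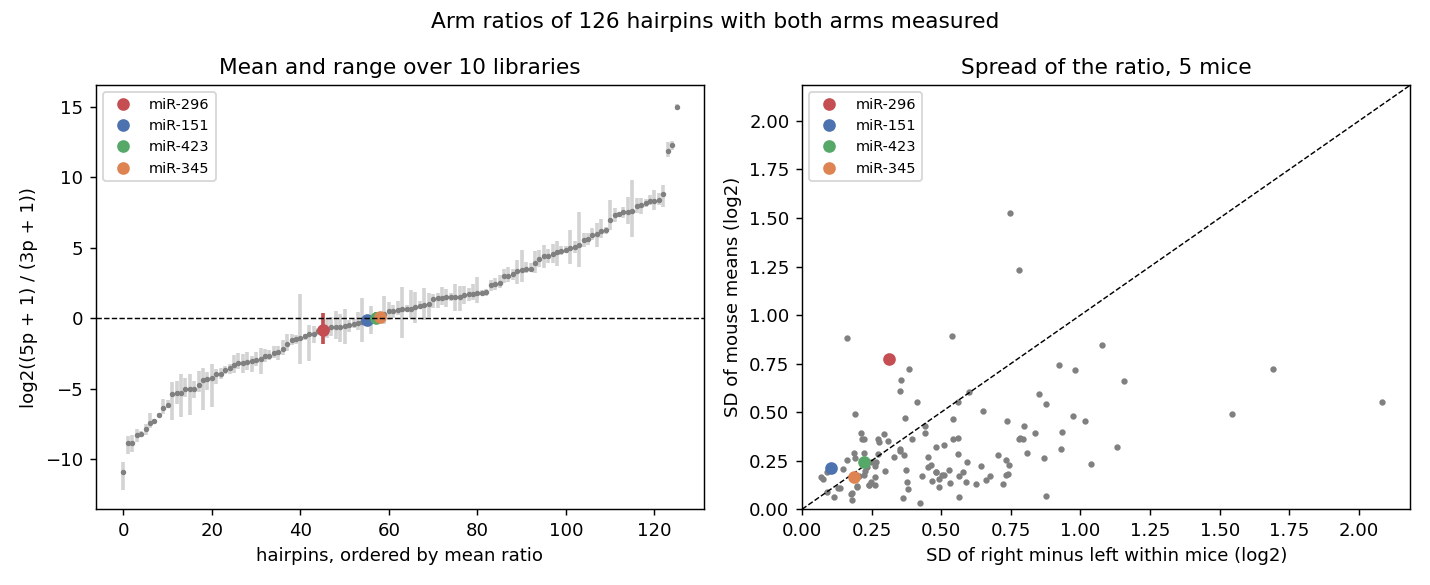
Left, the log2 5p to 3p ratio (y axis) of 126 hairpins ordered by their mean (x axis), with points for the mean and bars for the range over 10 libraries. Right, the SD of the ratio between mouse means (y axis) against the SD of right minus left within mice (x axis, both log2, 5 mice), with equal values on the dashed line. Without differences between mice, hairpins would be expected below that line. miR-423, miR-345 and miR-151 lie next to equal arms, and miR-296 lies above the line at 0.77 against 0.31.

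The hairpins with ratios most like these, by the root mean square difference of the log2 ratio over 10 libraries, were mostly each other. The choice of the 4 rested on this same ratio, so their nearness follows in part from the choice and is a description only. miR-151 and miR-345 were nearest to each other at 0.29, miR-423 was nearest to miR-151 at 0.39 and then to miR-345 at 0.41, and miR-151 was 0.33 from miR-708. miR-296 had no close neighbour: miR-339, with the 3p arm higher in 10 of 10 libraries, was at 0.63 and miR-1306, with low arms of 12.9 and 19.95 normalised reads, at 0.65.

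A list of 22 hairpins that yield both arms in other tissues was described for comparison. Of these, 17 were measured, with a median distance of 3.50 on the log2 scale from equal arms (11.3-fold) beside 3.24 for all 126. The higher arm changed in 2 of the 17, beside 19 of all 126 (15.1%). The 17 ran from miR-582, at 22.3 normalised reads for the 5p arm and 361 for the 3p arm, to miR-30e, at 11053 and 180.2. Of 25 hairpins known for 1 strong guide arm, 15 were measured, with a median distance of 7.58 (191-fold), and the higher arm changed in 0 of these. That list was picked for 1 strong arm, so a large distance and a fixed higher arm follow in part from the choice.

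The first bases of the arms were set beside the ratio. Both mature sequences were found for 106 of the 126. Where U stood first on the 5p arm only, the 5p arm had the higher level on average over the libraries in 25 of 29 hairpins, with a median log2 ratio of 5.01. Where U stood first on the 3p arm only, the 3p arm was higher in 15 of 24 (median -2.51), and where it stood on neither, in 24 of 43 (median -0.42). With U on both arms the 5p arm was higher in 5 of 10 (median 0.19). Hairpins with more A or U among the first 4 bases of the 5p arm had that arm higher in 20 of 32 (median 1.17), and those with more on the 3p arm split into 19 with the 5p arm higher and 19 with the 3p arm (median 0.14). None of these differences was tested. miR-296 and miR-345 belong to the hairpins with U on neither arm. miR-423 has U on the 5p arm only, as miR-423-5p above shows, and its mean ratio of 0.02 lay far below the median of those hairpins. Arms of a hairpin share a library and its base composition, so these are descriptions.

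The comparison of right with left retina asks whether the balance of the arms, or either arm, differed between the eyes of mice that had worn a lens on 1 eye. For miR-423 the ratio was higher on the right in 4 of 5 mice, by 0.38, 0.52, 0.26 and 0.43 in mice 61, 64, 66 and 68, and lower by a difference of -0.06 in mouse 65. Its log2 ratio was -0.13 ± 0.19 for left and 0.17 ± 0.33 for right retinas (SD, n = 5), a difference of 0.31 (SE 0.10, 95% interval 0.08 to 0.54). miR-423-5p had a log2 fold change of 0.15 (SE 0.14, 95% interval -0.19 to 0.48) and miR-423-3p of -0.16 (SE 0.09, -0.39 to 0.07). These means had opposite signs, but in no single mouse did the normalised values of the arms move in opposite directions. From left to right both arms rose in mouse 61 and fell in mouse 65. The value of miR-423-3p was the same on both sides in mouse 64, and that of miR-423-5p in mice 66 and 68. These arms kept their rank, which under the inferred normalisation does not show an unchanged level. Whether the arms moved in opposite directions in these 3 mice is therefore unknown. By limma over 126 hairpins with mouse as a block, the adjusted p of the ratio was 0.911 and the call was not made. At the unadjusted level its p by limma was 0.0152, rank 2 from the smallest, where 6 of 126 hairpins (4.76%) were under 0.05, and 15.1% of hairpins were higher on the right in at least 4 of 5 mice. Without mouse 65, whose right retina carried the high miR-184-3p and which alone had the opposite sign, the difference was 0.40 with an adjusted p by limma of 0.154. Leaving out this mouse moved the whole table. The hairpins with an unadjusted p by limma under 0.05 were then 12 of 126, against 6 with all mice. The miRNAs were 62 of 484, against 12. Right minus left, the GC trend per 10 points was 0.19, 0.12, 0.06 and 0.04 in mice 61, 64, 66 and 68 and -0.17 in mouse 65, and miR-423-5p has 8.70 points less GC than miR-423-3p. With these trends removed the difference was 0.35.

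The other 3 hairpins differed less between the sides than their spread. The right ratio of miR-345 was the lower one in 4 of 5 mice (18.3% of hairpins were so ordered), at 0.19 ± 0.18 for left and 0.015 ± 0.20 for right libraries (SD, n = 5). Its difference of -0.17 had a 95% interval from -0.53 to 0.19. For miR-151 the difference was -0.07 (-0.23 to 0.09), lower on the right in 3 mice, higher in 1 and equal in mouse 68. For miR-296 it was -0.03 (-0.48 to 0.42), with 3 mice higher and 2 lower on the right, from -0.51 in mouse 68 to 0.25 in mouse 66. Adjusted p values by limma were 0.959, 0.959 and 0.986. Over all 126 hairpins 0 (0%) passed the adjusted threshold of 0.05, and the median difference was -0.01.

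**Figure D4:**
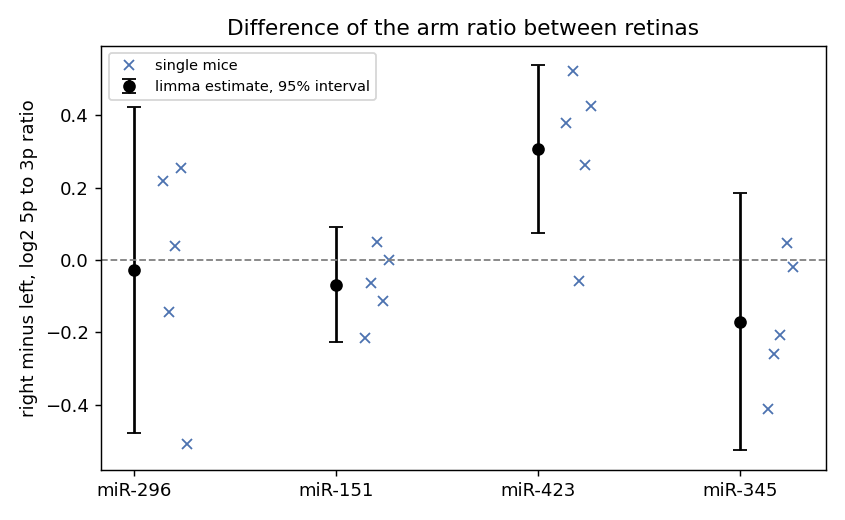
Right minus left of the log2 5p to 3p ratio (y axis) for each hairpin, with the limma estimate and its 95% interval (black) and the single mice (blue crosses, n = 5). The interval of miR-423, 0.08 to 0.54, lies above 0 before adjustment over 126 hairpins, and those of the other 3 include 0.

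None of the 8 arms passed the test on its own. Of the 484 miRNAs tested by limma 0 (0%) passed after adjustment, and 12 (2.48%) had an unadjusted p under 0.05, none of them an arm of these hairpins. The log2 fold changes, right minus left, were above 0 for 5 arms and below 0 for 3, from -0.16 for miR-423-3p to 0.15 for miR-423-5p, and the median over all tested miRNAs was -0.01. miR-345-5p, at 185 ± 27.4 and 167 ± 11.4 normalised reads in left and right retina (SD, n = 5), had a log2 fold change of -0.14 (SE 0.08), and 3.72% of tested miRNAs had 1 direction in all 5 mice as it did. The arms of miR-296 had log2 fold changes of 0.02 for miR-296-5p and 0.05 for miR-296-3p, with 95% intervals of -0.37 to 0.42 and -0.29 to 0.39. For miR-151-5p and miR-151-3p they were -0.06 and 0.01, with narrower intervals of -0.19 to 0.08 and -0.19 to 0.21. Normalised values of these arms recur across libraries, and the part of this in the width of the intervals was not tested.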

How the data were processed

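Per the labels' protocols, small RNA was extracted with a column kit and libraries were made from 50 ng with the TruSeq Small RNA kit. The submitters' processing notes list Partek and Bowtie with no version and the builds GRCm38 and mm10. Trimming, the miRNA annotation and the treatment of reads of shared sequences were not given in the sources used here. Values as deposited are a signal derived from read counts and normalised between libraries by the authors. Sorted values were equal in every library at 342 ranks, as quantile normalisation gives, though the method is not stated, so depth is unknown. The table held 0 columns of other samples.

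Arms were paired by name. Values entered as log2(value + 1), for miRNAs with a mean of at least 10 (both arms for a hairpin). This is the scale of every log2 ratio and log2 fold change, and it understates those of low miRNAs. Fold ranges of single arms and of sums of arms, and the 1.2-fold margin, used the values without the added 1. The model was limma (version 3.58.1, under R 4.3.3) with a mouse block, a mean-variance trend, two-sided tests, Benjamini-Hochberg adjustment over all features and a threshold of 0.05. The replicate number is the mouse, so same-numbered retinas come from 1 animal. Across miRNAs, the retinas of a mouse deviated from their side's mean with a correlation of 0.09 to 0.38, and those of different mice with values between -0.34 and 0.35 (median -0.08). The model was also run on simulated, normally distributed values, which do not recur across libraries as the deposited ones do. For hairpins that run took its trend over the mean ratio, where the reported fit took it over the mean level of both arms. Its outcome is not given here, so nothing is drawn from it.

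GC content came from RefSeq sequences, found for 424 of 484 tested miRNAs (87.6%). Positions are the table's, with its stop less 1 base, which matched RefSeq for 6 of 6 arms. Annotation is GENCODE M21. The members and lists were chosen with earlier results of these data known. Beside the 8 arms the text names, by rule, the 2 hairpins nearest to each in ratio, miR-298, miR-28a and miR-708, the ends of the lists and miRNAs sharing a seed. miR-666, miR-322 and miR-211-5p were chosen after their values were seen.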

Additional observations from a re-analysis of the deposited data

How the results depend on the processing

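No alternative made a call: 0 miRNAs and 0 hairpins passed with a pseudocount of 0.5 or 10, with no filter or a mean of at least 100, without the mean-variance trend, with GC trends removed, or without any 1 mouse. Without the replicate block, which keeps each estimate, 0 miRNAs and 0 hairpins passed as well, and the adjusted p by limma of the miR-423 ratio was 0.994. The adjusted p of that ratio by limma ranged from 0.154 to 0.994 over its alternatives. Leaving out 1 mouse at a time, its difference lay between 0.25 and 0.40, that of miR-345 between -0.22 and -0.11, that of miR-151 between -0.098 and -0.032 and that of miR-296 between -0.098 and 0.093, turning above 0 without mouse 64 (0.00097) and without mouse 68 (0.093). Single arms also changed sign: miR-296-5p ranged from -0.13 to 0.14, miR-296-3p from -0.036 to 0.19, miR-151-3p from -0.061 to 0.093 and miR-345-3p from -0.034 to 0.10 without 1 mouse. With GC trends removed miR-296-5p was at -0.057, miR-296-3p at -0.036 and miR-345-3p at -0.013. The cause was not tested. The mean log2 ratio moved by less than its SD, from -1.09 to -0.61 for miR-296 and from -0.05 to 0.11 for miR-423 without 1 mouse. The higher arm was not the same in every library in 36 of 205 hairpins at a mean of at least 1, in 5 of 46 at a mean of at least 100, in 12 of 126 with a margin of 1.2-fold and in 16 to 18 without 1 mouse. A fit with GC trends removed was not run for miR-151. For the 8 arms and 4 ratios, 0 of 24 groups of 5 left or right libraries had a library standing apart by Dixon's test.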

Other observations

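In another 14 hairpins each arm was the higher one in at least 1 library, and miR-350 had its 5p arm higher in 9 libraries and equal arms in 1. The 2 with both arms above a mean of 100 normalised reads were miR-322, at 180.3 for the 5p arm and 113 for the 3p arm, and the imprinted miR-376b of the Dlk1-Dio3 region, at 151 and 191. miR-17, of the proliferation-linked miR-17-92 cluster, had its 5p arm higher in 9 of 10 libraries (mean log2 ratio 0.52 ± 0.37, SD), and miR-324 its 3p arm in 9 of 10 (-0.60 ± 0.45). miR-377, also of the Dlk1-Dio3 region, was the most even of them, with the 5p arm higher in 6 libraries and the 3p arm in 4, at means of 15.4 and 15.7. miR-379 had the widest spread, with a mean log2 ratio of -1.43 ± 1.48 (SD) and the 3p arm higher in 8 of 10. Hairpins whose higher arm was not the same in every library had a median of 43.3 normalised reads on their lower arm, and those with a fixed one 61.8. These hairpins were named after their values were seen.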
